A study of Mus musculus with 37 samples.

Results

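The endoplasmic reticulum folding and unfolded protein response genes were followed as 1 module of 32 genes, named by gene symbol from the known roles of their products. They comprised the chaperones and cofactors Hspa5, Hsp90b1, Hyou1, Dnajb9, Dnajb11, Dnajc3, Sdf2l1, Creld2 and Manf, the lectin chaperones Calr and Canx, the disulfide isomerases Pdia3, Pdia4, Pdia6, P4hb and Erp44, the degradation genes Sel1l, Syvn1, Herpud1, Edem1, Edem2, Derl1, Derl2, Derl3 and Os9, the stress sensors Atf6, Ern1 and Eif2ak3 with the transcription factor Xbp1, and the translocation genes Sec61a1, Sec61b and Ssr1. All 32 were among the 30892 genes listed for mouse cardiac fibroblasts and the 31053 listed for the single-cell libraries, and 31 were among the 20158 listed for rat myocytes, where Derl3 had no entry under that name. After genes with few reads were set aside, 31 members of 17879 genes were tested in fibroblasts and 31 of 13461 in myocytes. Derl3 reached at most 0.196 CPM (counts of a gene relative to the scaled total of its library) in any fibroblast library and was not tested.

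The study asked how ENPP1, an ectonucleotidase that splits extracellular ATP into AMP and pyrophosphate, changes the exchange between myocytes and cardiac fibroblasts (CFs). CFs were 1 wild-type C57BL/6 line immortalized with SV40, and they received medium conditioned by neonatal rat ventricular myocytes (NRVM) that had been given vehicle, ENPP1, ATP, ENPP1+ATP or AMP. They were collected at 24 h or 48 h with 2 libraries for each of the 10 groups. NRVM from wild-type Sprague-Dawley rats were labelled with the same 5 media at 24 h, with 3 libraries each, and nonmyocytes of the injured mouse heart were profiled 7 days after myocardial infarction in 1 control library, labelled C57BL/6 wild type, and 1 ENPP1CKO library. The labels say that NRVM received conditioned medium. The study describes adding ENPP1, ATP or AMP to NRVM in order to make that medium, and also giving ENPP1+ATP medium to separately grown myocytes. For myocytes given that medium it reports no changes in p53-driven apoptosis genes. Which of these the NRVM libraries received is not settled here, and their values compare the labelled groups. In ENPP1CKO animals both floxed Enpp1 alleles were to be deleted by tamoxifen through a Col1a2-driven inducible Cre, which acts in collagen-expressing cells. The study calls its replicates biological. No label says which libraries of a group came from separate cultures, so the p-values of the bulk comparisons measure the spread between these libraries. Totals were 32184799 to 115824659 reads per CF library and 13481389 to 16977980 per NRVM library.

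Secreted and membrane proteins enter the endoplasmic reticulum through the Sec61 channel, fold there with the help of the Hsp70-type chaperone BiP (Hspa5), the calnexin and calreticulin lectins and the disulfide isomerases, and are sent for degradation when folding fails. The sensors Ire1 (Ern1), Perk (Eif2ak3) and Atf6 respond when unfolded proteins accumulate: Ire1 splices Xbp1 mRNA into the form that makes an active transcription factor, Atf6 is cut free as one, and Perk lowers translation. Xbp1 and Atf6 raise many of the folding and degradation genes, and fibroblasts, which secrete collagen, use this machinery heavily. Counts per gene do not separate spliced from unspliced Xbp1, so the values below are total mRNA.

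A regulatory sequence known from the promoters of several of these genes is the endoplasmic reticulum stress element (ERSE), a CCAAT box and a CCACG box 9 bases apart, to which NF-Y and Atf6 are known to bind. Promoter windows of 300 bases, from 250 before to 50 after each RefSeq start on the mouse GRCm38.p6 assembly, were at hand for 27 of the 32 members. The letters CCAAT, then any 9 bases, then CCACG occurred on either strand in the windows of 9 of the 27 members (33.3%), against 37 of all 27025 genes with a window (0.137%). The shorter ERSE-II, which is ATTGG, any 1 base and CCACG, occurred in Dnajb11 and Herpud1 (7.41% of the 27), against 12 of all genes (0.0444%), and TGACGTGG, an element bound by Xbp1, was not in any of the 27 windows but in 193 of all genes (0.714%). CCAAT alone, which is part of the ERSE, was in the windows of 22 of the 27 (81.5%) and of 41.1% of all genes. The matches follow because they are the feature shared by members of different roles. Each is written 5′ to 3′ along the strand that carries the motif, with its GRCm38.p6 position and with the motif letters in capitals. Plus and minus are relative to the gene, plus being the strand along which the gene reads. Hsp90b1, Calr and Canx are minus-strand genes, so for them plus is the minus strand of the genome and minus its plus strand.
Hspa5, chr2:34772025-34772043, plus strand: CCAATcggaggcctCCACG
Hsp90b1, chr10:86705638-86705656, plus strand: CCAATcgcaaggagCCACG
Hsp90b1, chr10:86705533-86705551, minus strand: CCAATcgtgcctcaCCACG
Dnajc3, chr14:118937827-118937845, plus strand: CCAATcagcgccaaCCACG
Creld2, chr15:88819520-88819538, minus strand: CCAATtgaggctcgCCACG
Calr, chr8:84847075-84847093, minus strand: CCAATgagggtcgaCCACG
Canx, chr11:50325800-50325818, plus strand: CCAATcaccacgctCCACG
Pdia6, chr12:17266491-17266509, plus strand: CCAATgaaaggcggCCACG
Syvn1, chr19:6046532-6046550, plus strand: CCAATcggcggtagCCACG
Derl3, chr10:75893242-75893260, minus strand: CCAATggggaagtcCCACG
Herpud1, chr8:94386377-94386387, plus strand: ATTGGgCCACG
Dnajb11, chr16:22857852-22857862, plus strand: ATTGGcCCACG

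Whole windows are shown for Hspa5, the central chaperone, and for Herpud1, a membrane adaptor of the degradation complex, since these carried the different forms of the element and are described in every data set below. Both genes lie on the plus strand, and the windows read 5′ to 3′ along it with the element in capitals. The Hspa5 element began 65 bases before the start, and that of Herpud1 52 bases before it.
Hspa5, chr2:34771840-34772139: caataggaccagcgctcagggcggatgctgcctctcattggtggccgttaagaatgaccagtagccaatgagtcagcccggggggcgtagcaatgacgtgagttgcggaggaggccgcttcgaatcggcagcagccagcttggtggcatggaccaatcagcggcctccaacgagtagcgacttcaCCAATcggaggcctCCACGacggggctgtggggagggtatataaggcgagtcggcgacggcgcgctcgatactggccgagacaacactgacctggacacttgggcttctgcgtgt
Herpud1, chr8:94386179-94386478: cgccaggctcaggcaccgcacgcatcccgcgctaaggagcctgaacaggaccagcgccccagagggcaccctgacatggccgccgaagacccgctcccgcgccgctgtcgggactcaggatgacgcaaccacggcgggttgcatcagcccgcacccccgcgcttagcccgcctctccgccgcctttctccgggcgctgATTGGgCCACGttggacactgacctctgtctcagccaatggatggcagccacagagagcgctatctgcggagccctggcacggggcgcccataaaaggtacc

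In CFs under vehicle medium at 24 h, levels per kilobase of exon placed Calr, a calcium-binding lectin chaperone, highest at 410.4 CPM per kb. P4hb, a disulfide isomerase that also serves in collagen prolyl hydroxylase, followed at 375, then Pdia3 at 254, Hspa5 at 233, Hsp90b1 at 204 and Canx at 183. The regulators lay far below these 6: Xbp1 was at 23.3 CPM per kb, Atf6 at 11.05, Ern1 at 10.6 and Eif2ak3 at 6.61. The folding cofactor Dnajb9 (9.17) and Derl2 (6.59) were as low. The cells carried collagen markers, with the 10 fibroblast markers summing to 7254 to 7656 CPM, but Lum was at 0.313 and Tcf21 at 2.82 CPM. That fibroblast sum was 3664 to 3749 CPM under ENPP1+ATP and 2882 to 3109.8 under AMP at 24 h. Col1a1, the marker with the highest level, averaged 4019 CPM under vehicle and 2976 under ATP alone at 24 h. At 48 h it averaged 3760 CPM under vehicle, 2280 under ENPP1+ATP and 2431 under AMP. Dcn and Fbln1 were higher under ENPP1+ATP and AMP than under vehicle at both times. The part of these markers in the results below was not tested. In bulk samples such as these, fewer cells of a type and less RNA per cell cannot be told apart. The study reports that ENPP1+ATP and AMP media cause death of CFs, and describes cell-cycle arrest under ENPP1+ATP medium. Bulk libraries do not separate dying from surviving cells. The part of cell death in the CF differences at either time, or between the times, was not tested.

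ENPP1+ATP medium shifted the module in both directions at 24 h, with the largest falls in Xbp1, Sec61b and Derl1 and the largest rises in Ern1, Calr and Atf6. Of 31 members, 4 were higher and 14 lower than under vehicle at an adjusted p under 0.05, where 23.9% of all 17879 genes were higher and 25.3% lower. The members' median log2 difference was -0.05, against -0.0046 over all genes tested. AMP medium gave 6 higher and 17 lower members (median -0.12), with 25.3% of all genes higher and 27.5% lower. The share of members called lower, 45.2% under ENPP1+ATP and 54.8% under AMP, was above these backgrounds and the share called higher, 12.9% and 19.4%, below them. Calls are from edgeR's quasi-likelihood test with Benjamini-Hochberg adjustment over all genes, and the ± after a log2 difference is its standard error from that fit (SE; n = 2 libraries per CF group and 3 per NRVM group). All media were compared with the same vehicle libraries, so the comparisons with vehicle are not independent of each other. Non-overlap of so few libraries, as given below, is a weak sign by itself. Under ENPP1 alone 15 of 31 members did not overlap vehicle in CFs at 24 h, 14 at 48 h and 9 in NRVM, and 0 were called. The share of all genes without overlap was not counted. The heat map of the 31 tested members sets all of these differences side by side.

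**Figure D1:**
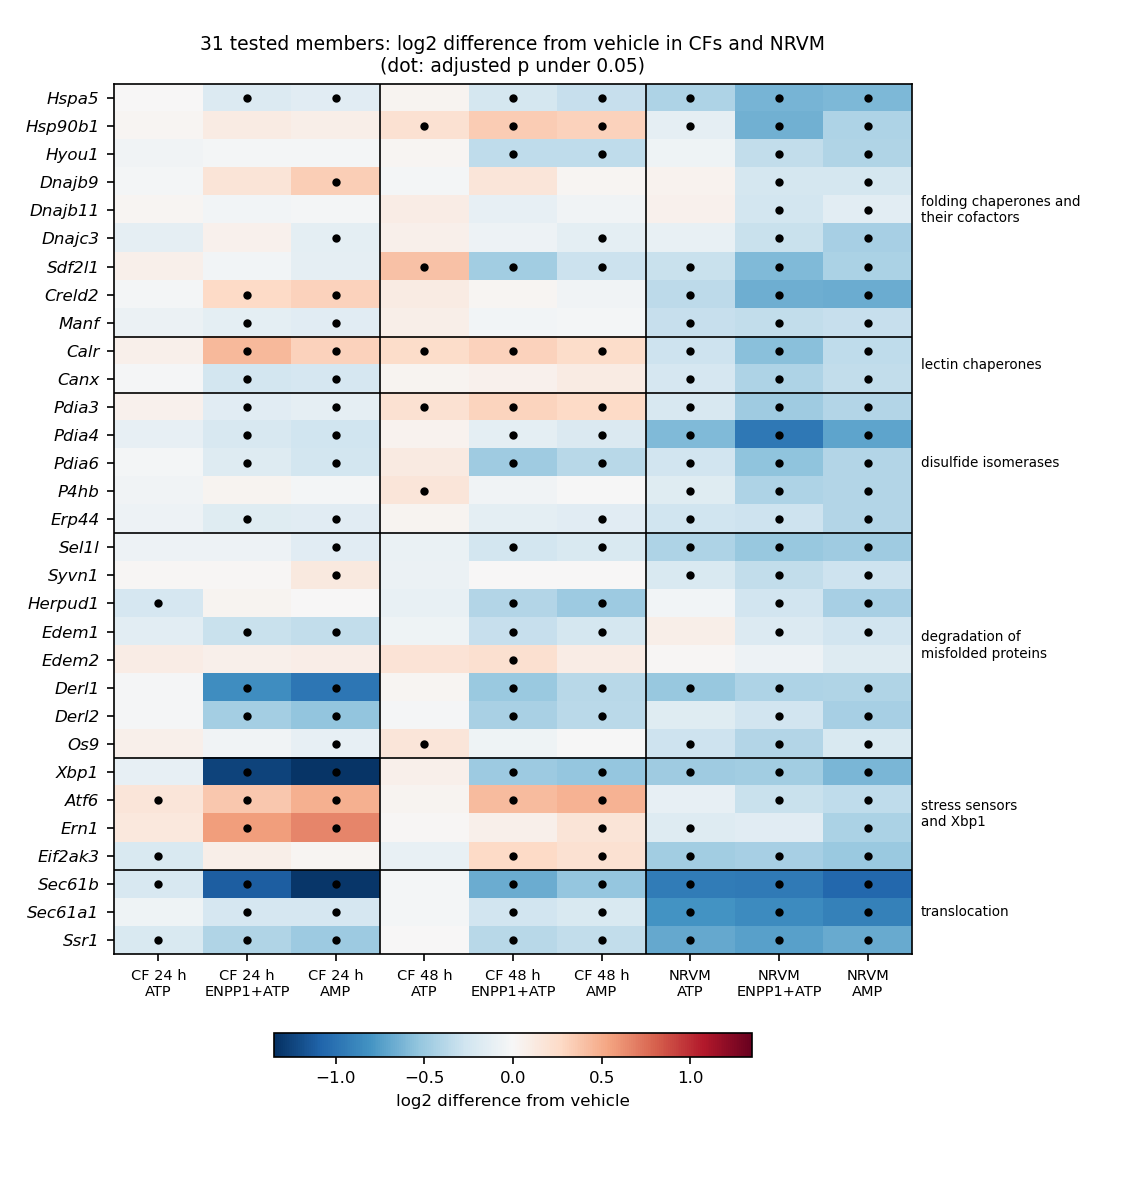
Log2 difference from vehicle for the 31 tested members, in rows grouped by role, in CFs at 24 h and 48 h and in NRVM at 24 h, in columns by medium, with a dot where the adjusted p was under 0.05. The CF columns for ENPP1+ATP and AMP hold rises and falls, and the NRVM columns for ATP, ENPP1+ATP and AMP hold falls only among the dotted cells.

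Among the sensors and Xbp1, Xbp1 was at 72.2 and 79.2 CPM in the vehicle libraries at 24 h, 31.3 and 32.2 under ENPP1+ATP and 27.5 and 32.6 under AMP. Every treated library lay far below both vehicle libraries, without overlap. The log2 difference was -1.25 ± 0.071 (SE, adjusted p = 3.6e-13) under ENPP1+ATP and -1.32 ± 0.070 (SE, adjusted p = 7.9e-14) under AMP. Ern1, the Ire1 sensor that cuts Xbp1 mRNA, moved the other way, from 85.2 and 87.8 CPM under vehicle to 131 and 125 under ENPP1+ATP and 137 and 136 under AMP. No treated library of Ern1 overlapped a vehicle library, and its log2 differences were 0.57 ± 0.056 (SE, adjusted p = 6.2e-09) and 0.66 ± 0.056 (SE, adjusted p = 3.6e-10). Atf6, the sensor released by cleavage, rose from 100.3 and 104 CPM to 134 and 129 under ENPP1+ATP and 142 and 142 under AMP, again without overlap, by 0.37 ± 0.046 and 0.48 ± 0.046 (log2 ± SE). Eif2ak3, the Perk kinase, was at 39.9 and 39.8 CPM under vehicle, 44.9 and 39.5 under ENPP1+ATP and 41.0 and 40.1 under AMP, and was not called in either comparison (adjusted p = 0.28 and 0.75).

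All 3 translocation genes fell under both media at 24 h. Sec61b, the small beta subunit of the channel, was at 42.4 and 48.0 CPM under vehicle, 20.3 and 21.3 under ENPP1+ATP and 17.3 and 19.0 under AMP. The groups did not overlap, and the treated libraries clustered near the same level, with log2 differences of -1.12 ± 0.074 (SE, adjusted p = 5.8e-12) and -1.31 ± 0.074 (SE, adjusted p = 2.2e-13). Ssr1, a subunit of the translocon-associated complex, fell by 0.41 and 0.49 on the log2 scale, and Sec61a1, the pore-forming subunit, by 0.23 and 0.23.

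In the degradation group, the derlins, which form the exit channel for misfolded proteins, fell together. Derl1 was at 192 and 203 CPM under vehicle, 107 and 113 under ENPP1+ATP and 89.8 and 109.9 under AMP, with log2 differences of -0.84 ± 0.069 (SE, adjusted p = 6.5e-10) and -0.98 ± 0.069 (SE, adjusted p = 3.7e-11). Its treated libraries all lay below its vehicle libraries. Derl2 fell by 0.46 and 0.53, and Edem1, which hands misfolded glycoproteins to the exit channel, by 0.30 and 0.33 on the log2 scale. The ubiquitin ligase Syvn1 and its partner Sel1l were called only under AMP, where Syvn1 rose (0.13 ± 0.051, adjusted p = 0.036) and Sel1l fell (-0.15 ± 0.041, adjusted p = 0.0038). Under ENPP1+ATP the values of Herpud1 (0.03 ± 0.047), Edem2 (0.07 ± 0.075), Os9 (-0.05 ± 0.047), Sel1l (-0.07 ± 0.041) and Syvn1 (0.02 ± 0.052) did not pass, and under AMP neither did Herpud1 (0.00 ± 0.047) or Edem2 (0.09 ± 0.074), while Os9 (-0.11 ± 0.047, adjusted p = 0.049) did.

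Of the chaperones and cofactors at 24 h, Hspa5 and Manf fell and Creld2 rose under both media. Hspa5 was at 946 and 1022 CPM under vehicle, 892 and 840.5 under ENPP1+ATP and 909.6 and 865 under AMP. Its treated libraries lay below both vehicle libraries, by a log2 difference of -0.18 ± 0.052 (SE, adjusted p = 0.0050) under ENPP1+ATP and -0.15 ± 0.052 (SE, adjusted p = 0.019) under AMP, but the call was lost under ENPP1+ATP when ENPP1+ATP replicate 2 or vehicle replicate 2 was left out, and under AMP when AMP replicate 2 or vehicle replicate 2 was. Creld2, a secreted resident of the compartment, rose by 0.27 ± 0.062 and 0.31 ± 0.062. Dnajb9, a cofactor that acts on Ire1, rose under AMP by 0.33 ± 0.084, from 22.9 and 23.8 CPM to 32.3 and 26.7, and its call was lost without AMP replicate 1. Under ENPP1+ATP it was at 25.5 and 27.1 CPM and did not pass (0.17 ± 0.086, adjusted p = 0.10). Hsp90b1, the Hsp90 of the compartment, was at 803 and 842 CPM under vehicle, 897 and 881 under ENPP1+ATP and 898 and 839.5 under AMP. The ENPP1+ATP libraries lay above both vehicle libraries and the AMP libraries overlapped them, and neither difference passed (adjusted p = 0.054 and 0.17). Hyou1, Dnajb11 and Sdf2l1 passed under neither medium, with log2 differences between -0.12 and -0.03. Dnajc3, an inhibitor of Perk, passed under AMP only (-0.13 ± 0.047, adjusted p = 0.021), and Manf, a secreted stress-responsive factor, passed under both with small differences (-0.13 and -0.16).

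The lectin chaperones moved apart. Calr was at 1194 and 1169.8 CPM under vehicle, 1639.9 and 1562 under ENPP1+ATP and 1512 and 1431 under AMP, a log2 rise of 0.44 ± 0.051 and 0.32 ± 0.051. Every treated library was above both vehicle libraries. Its membrane-bound relative Canx fell by 0.25 and 0.23 on the log2 scale. Of the 5 isomerases, Pdia4, Pdia6, Pdia3 and Erp44 fell under both media, by between 0.12 and 0.27, and P4hb did not pass (0.04 ± 0.043 and -0.03 ± 0.043). Several of the small differences depended on 1 library. Under ENPP1+ATP, Manf lost its call without any of ENPP1+ATP replicates 1 and 2 and vehicle replicate 1, Pdia3 without ENPP1+ATP replicate 1, Pdia6 without ENPP1+ATP replicate 2, and Erp44 without either ENPP1+ATP replicate or vehicle replicate 2. Under AMP, Dnajc3, Manf, Erp44 and Syvn1 lost theirs without AMP replicate 2, Dnajc3, Erp44, Syvn1 and Os9 without vehicle replicate 2, Manf, Syvn1 and Os9 without vehicle replicate 1, Os9 without AMP replicate 1, and Pdia3 without any of the 4 libraries.

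**Figure D2:**
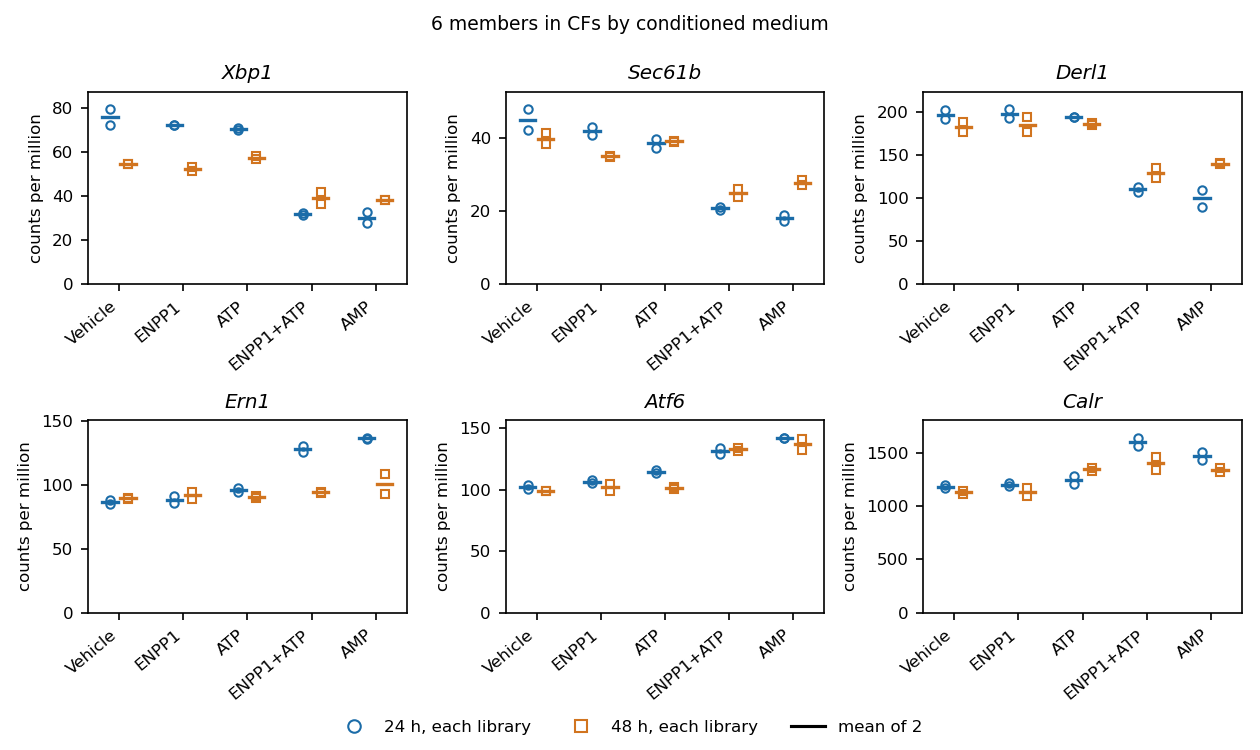
Level of 6 members in CPM in each CF library by conditioned medium, with circles for 24 h, squares for 48 h and lines at the mean of 2 libraries. The ENPP1+ATP and AMP libraries of Xbp1 sit below all vehicle, ENPP1 and ATP libraries of the same time.

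At 48 h Calr kept its rise and the translocation genes and derlins their falls, while Hsp90b1 and Pdia3 were now higher than under vehicle and Canx was no longer called. ENPP1+ATP gave 6 higher and 14 lower members of 31 (median -0.11), where 20.8% of all genes were higher and 24.4% lower, and AMP gave 6 higher and 16 lower (median -0.14), where 21.1% were higher and 22.9% lower. Across both media and both times, compared with the vehicle libraries of each time, Calr and Atf6 were higher in all 4 comparisons, and Hspa5, Pdia4, Pdia6, Edem1, Derl1, Derl2, Xbp1, Sec61b, Sec61a1 and Ssr1 were lower in all 4. Of all 17879 genes, 10.6% were higher and 11.7% lower in all 4, and both comparisons at a time share its vehicle libraries. Dnajb11, a cofactor of Hspa5, and P4hb were called in none. Pdia3, which works with the lectins on glycoproteins, was lower at 24 h and higher at 48 h.

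Xbp1 at 48 h was at 54.6 and 54.5 CPM under vehicle, 36.1 and 41.7 under ENPP1+ATP and 38.1 and 38.0 under AMP. The groups did not overlap, but the distance was smaller than at 24 h, with log2 differences of -0.49 ± 0.071 and -0.52 ± 0.071. Sec61b was at 38.4 and 41.5 CPM under vehicle, 26.1 and 24.1 under ENPP1+ATP and 28.5 and 27.1 under AMP (-0.67 ± 0.074 and -0.52 ± 0.073). Derl1 fell by 0.50 and 0.38, Derl2 by 0.43 and 0.36, Edem1 by 0.31 and 0.24, Ssr1 by 0.37 and 0.34, and Sec61a1 by 0.26 and 0.21 on the log2 scale. The translocation and derlin genes kept their direction at both times.

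Herpud1, Hyou1 and Sdf2l1, which had passed under neither ENPP1+ATP nor AMP at 24 h, fell under both at 48 h. Herpud1 was at 126 and 129 CPM under vehicle, 100.02 and 94.6 under ENPP1+ATP and 92.6 and 89.3 under AMP, with log2 differences of -0.39 ± 0.048 (SE, adjusted p = 2.3e-07) and -0.49 ± 0.048 (SE, adjusted p = 5.9e-09). Hyou1, a large Hsp70-type chaperone, was at 213 and 217 CPM, 167 and 173 and 173 and 167 in the same order (-0.34 ± 0.046 and -0.34 ± 0.046). Neither gene's treated libraries overlapped its vehicle libraries. Sdf2l1, a cofactor in the Hspa5 complex, was at 32.5 and 33.0 CPM, 21.7 and 25.6 and 25.7 and 27.8 (-0.47 ± 0.076 and -0.29 ± 0.074), and its call under AMP was lost without AMP replicate 1. Hspa5 itself was at 811 and 823, 674 and 717 and 687 and 630.2 CPM (-0.23 ± 0.052, adjusted p = 7.1e-04 and -0.31 ± 0.052, adjusted p = 2.7e-05). At this time its calls held when any library was left out.

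In the isomerase group at 48 h, Pdia6 fell by 0.48 and 0.38 and Pdia4 by 0.13 and 0.20, while Pdia3 rose by 0.30 and 0.27 on the log2 scale. Hsp90b1 rose from 726 and 732 CPM to 895 and 955 under ENPP1+ATP and 902 and 903 under AMP (0.34 ± 0.048 and 0.31 ± 0.048), and Calr from 1116 and 1144 to 1342 and 1462 and 1358 and 1318 (0.31 ± 0.051 and 0.24 ± 0.051). Each treated library of both genes was above the vehicle libraries. Among the sensors, Atf6 rose by 0.43 and 0.47 and Eif2ak3 by 0.27 and 0.21, whereas Ern1 was at 89.0 and 89.8 CPM under vehicle, 94.6 and 93.2 under ENPP1+ATP and 92.7 and 108 under AMP, and passed only under AMP (0.17 ± 0.056, adjusted p = 0.017). Edem2, a relative of Edem1, rose under ENPP1+ATP (0.22 ± 0.076, adjusted p = 0.021) and did not pass under AMP (0.10 ± 0.076). Sel1l fell by 0.24 and 0.21, and Erp44 (-0.16 ± 0.053, adjusted p = 0.019) and Dnajc3 (-0.14 ± 0.047, adjusted p = 0.022) passed under AMP only. Not called under either medium at 48 h were Dnajb9, Dnajb11, Creld2, Manf, Canx, P4hb, Syvn1 and Os9, with log2 differences between -0.11 and 0.16. The calls of Pdia4 and Edem2 under ENPP1+ATP were lost without vehicle replicate 1 or 2, that of Pdia4 also without ENPP1+ATP replicate 1 and that of Edem2 without ENPP1+ATP replicate 2. Under AMP, Dnajc3, Erp44, Ern1 and Eif2ak3 lost theirs without vehicle replicate 2, Ern1 also without vehicle replicate 1 or AMP replicate 2, and Dnajc3 and Erp44 without AMP replicate 1, Dnajc3 also without AMP replicate 2.

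Under ENPP1 or ATP alone fewer members, and fewer of all genes, were called than under the combination. Under ENPP1 alone, edgeR's quasi-likelihood test called 0 of 31 members at 24 h and 0 at 48 h, as did DESeq2, with 0% of all genes called at 24 h and 0% at 48 h. At an unadjusted p under 0.05, 0 members passed at 24 h and 1 at 48 h. ATP alone gave 1 higher and 4 lower members at 24 h, where 11.1% of all genes were called. These were Atf6 (rising by 0.17) and Herpud1 (-0.23), Sec61b (-0.22), Eif2ak3 (-0.21) and Ssr1 (-0.21), all of which lost the call without ATP replicate 2, all but Herpud1 and Ssr1 also without ATP replicate 1 or vehicle replicate 2, and Atf6 and Eif2ak3 also without vehicle replicate 1. At 48 h ATP alone gave 6 higher and 0 lower, where 5.35% of all genes were higher and 2.48% lower. Apart from Os9, a lectin of the degradation group, those 6 were folding genes: Sdf2l1 rose by 0.39 ± 0.073, from 32.5 and 33.0 CPM to 43.7 and 42.2, Calr by 0.25 ± 0.051, Hsp90b1 by 0.21 ± 0.048, Pdia3 by 0.21 ± 0.045, Os9 by 0.17 ± 0.047 and P4hb by 0.17 ± 0.043. Sdf2l1 and Calr kept the call when any library was left out. Hsp90b1, Pdia3, P4hb and Os9 lost it without ATP replicate 1, Hsp90b1, P4hb and Os9 also without vehicle replicate 1, and P4hb and Os9 without ATP replicate 2 or vehicle replicate 2.

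The combination was also set against ATP alone. At 24 h, 7 members were higher and 12 lower under ENPP1+ATP than under ATP, where 21.8% of all genes were higher and 22.1% lower, with Xbp1 (-1.14 ± 0.072), Sec61b (-0.89 ± 0.075) and Derl1 (-0.82 ± 0.070) falling most and Ern1 (0.42 ± 0.056) and Calr (0.37 ± 0.051) rising most. At 48 h, 3 were higher and 19 lower, where 18.2% were higher and 21.3% lower. Sdf2l1, which was 43.7 and 42.2 CPM under ATP and 21.7 and 25.6 under ENPP1+ATP, had the largest fall at -0.86 ± 0.075 (SE, adjusted p = 1.4e-09). The AMP and ENPP1+ATP media lay close together. AMP differed from ENPP1+ATP at 24 h in 1 member, Dnajc3 (-0.19 ± 0.047, adjusted p = 0.015), where 6.25% of all genes were called, and that call was lost without AMP replicate 2 or ENPP1+ATP replicate 1. At 48 h edgeR and DESeq2 called 0 members, with 2 at an unadjusted p under 0.05, where 0.162% of all genes were called. The 95% intervals of all 31 differences between AMP and ENPP1+ATP lay within 0.5 on the log2 scale at both times.

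Between 24 h and 48 h more members, and more of all genes, were called under ENPP1+ATP and AMP than under vehicle, ENPP1 or ATP. The shares of members called were 54.8% under ENPP1+ATP and 58.1% under AMP, against 12.9% under vehicle, 19.4% under ENPP1 and 32.3% under ATP. Under vehicle 1 member rose and 3 fell, where 4.88% of all genes were called: Xbp1 (-0.47 ± 0.068), Hspa5 (-0.27 ± 0.052), Hsp90b1 (-0.17 ± 0.047) and Sel1l (0.16 ± 0.041). The Xbp1 call held when any of the 4 libraries was left out, and the others did not: Hspa5 lost it without vehicle 24 h replicate 2 or vehicle 48 h replicate 1, and Hsp90b1 and Sel1l without any 1 of the 4. With ATP alone 6 members rose and 4 fell (14.8% of all genes called), and with ENPP1 alone 1 rose and 5 fell (7.95%). Both of these counts depended on single libraries, as given below. Under ENPP1+ATP 6 rose and 11 fell (40.7% of all genes called), and under AMP 8 rose and 10 fell (43.1%). Herpud1 fell by 0.47 and 0.54, Ern1 by 0.45 and 0.44, and Hyou1 by 0.41 and 0.41, while Sec61b rose by 0.27 and 0.61, Derl1 by 0.23 and 0.49, Pdia3 by 0.34 and 0.29 and Xbp1 by 0.29 and 0.33. Under ENPP1+ATP the rises of Xbp1 and Derl1 lost their calls without ENPP1+ATP 48 h replicate 2, those of Derl1 and Sec61b without ENPP1+ATP 24 h replicate 1, and that of Sec61b without ENPP1+ATP 48 h replicate 1.

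Whether the response to a medium differed between the times was tested by an interaction term. For ENPP1+ATP it passed for 13 members, 6 with a higher and 7 with a lower difference from vehicle at 48 h, where 30% of all genes passed. For AMP it passed for 10, 6 higher and 4 lower, where 31.7% passed. Xbp1 had the largest term under both media (0.76 ± 0.10, adjusted p = 2.2e-06 and 0.80 ± 0.10, adjusted p = 7.8e-07), that is, its fall was smaller at 48 h. Sec61b (0.45 and 0.79), Pdia3 (0.45 and 0.40) and Derl1 (0.34 and 0.60) also had higher terms under both, the Derl1 term for ENPP1+ATP losing its call without ENPP1+ATP 24 h replicate 1, vehicle 24 h replicate 2, ENPP1+ATP 48 h replicate 2 or vehicle 48 h replicate 1. Ern1 (-0.49 and -0.49) and Herpud1 (-0.43 and -0.50) had terms in the other direction under both media, and Sdf2l1 (-0.43) under ENPP1+ATP. Vehicle Xbp1 itself was lower at 48 h than at 24 h, as given above, and is part of this term.

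Neighbouring genes of the pathway were read in the same comparisons. Their lists were set by general knowledge, but with earlier results of these data known. Their counts stand against the 23.9% of all genes that were higher and the 25.3% that were lower under ENPP1+ATP at 24 h. Of the other translocation and signal peptide cleavage genes, 0 of 13 were higher and 10 lower under ENPP1+ATP at 24 h, with the channel subunit Sec61g at -1.09 and the signal peptidase subunit Spcs3 at -0.67 on the log2 scale. Of the N-glycosylation genes, 0 of 12 were higher and 9 lower, with the oligosaccharyltransferase subunits Ostc at -1.06 and Stt3a at -0.53. No gene of either list was called higher. Of the other folding enzymes, 2 of 20 were higher and 14 lower. Serpinh1, the collagen-specific chaperone, fell from 1594 and 1677 CPM to 650.0 and 736 (-1.24 ± 0.066, adjusted p = 1.6e-13), the prolyl isomerase Fkbp11 by 1.41, and the disulfide oxidases Ero1b and Qsox1 rose by 1.02 and 0.56.

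Of the other degradation genes, 2 of 16 were higher and 5 lower, with the ubiquitin ligase Rnf139 at -0.44, Selenos at -0.38, the deglycosylating enzyme Ngly1 at 0.41 and Ubxn4 at 0.56. Of the other regulators and retrieval genes, 1 of 13 were higher and 10 lower. In this group the receptors that return escaped proteins fell, Kdelr3 by 0.79 and Kdelr2 by 0.61, and Wfs1 rose by 0.36. The arm downstream of Perk was mixed: 5 of 12 were higher and 6 lower, with the transcription factor Atf3 at 1.44, Sesn2 at 0.92, the pseudokinase Trib3 at -0.59 and asparagine synthetase, Asns, at -0.53. At 48 h Trib3 was at -2.30 and Asns at -1.23 under the same medium. Of the heat shock genes of cytosol and mitochondria, 3 of 14 were higher and 6 lower, with Hsp90aa1 at 0.45, Hspa1a at 0.42, Hspa8 at -0.46 and Hspe1 at -0.67.

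In NRVM every member called against vehicle was lower. Some members that were not called under ATP, such as Dnajb11, lay above vehicle. The 31 listed members summed to 8558 ± 7.07 CPM (mean ± SD, n = 3) under vehicle, 8288 ± 121 under ENPP1, 7087 ± 124 under ATP, 6297 ± 84.9 under AMP and 6013 ± 40.8 under ENPP1+ATP. Against vehicle, ENPP1+ATP gave 0 higher and 29 lower members (median log2 difference -0.42, against 0.0079 over all genes tested), where 28.6% of 13461 genes were higher and 27.4% lower. AMP gave 0 higher and 30 lower (median -0.41; 29.2% and 28% of all genes), and ATP alone 0 higher and 22 lower (median -0.26; 30.2% and 29.7%). The shares of members called lower, 93.5%, 96.8% and 71.0% for ENPP1+ATP, AMP and ATP, stood above the background in all 3. Under ENPP1 alone edgeR and DESeq2 called 0 members, with 6 at an unadjusted p under 0.05, where 0% of all genes were called. These media shared the vehicle libraries, and 21 of 31 members were lower under all 3 of ATP, ENPP1+ATP and AMP, as were 19.7% of all genes. Edem2 was called under none, and Ern1 was not called under ENPP1+ATP (-0.16 ± 0.072, adjusted p = 0.058).

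NRVM libraries held fibroblast marker RNA beside that of myocytes. The 9 listed fibroblast markers summed to 24975 to 26357 CPM under vehicle, 25135 to 25527 under ENPP1, 10557 to 11910.1 under ATP, 11744 to 12557 under AMP and 8464 to 8922 under ENPP1+ATP. The 10 cardiomyocyte markers summed to 43376 to 45628 CPM under vehicle, 23460.4 to 25338 under ATP, 36111 to 37968 under ENPP1+ATP and 41902 to 44756 under AMP. The fibroblast sum was lower under each of the media that lowered the members, and their part in the falls described here was not tested.

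Among the chaperones, Hspa5 was at 1159, 1145 and 1143 CPM under vehicle, 847, 866 and 876 under ATP, 744, 749 and 742 under ENPP1+ATP and 750.1, 752 and 762 under AMP. All 3 treated groups lay below the vehicle libraries, and the ENPP1+ATP and AMP libraries below those of ATP, with log2 differences from vehicle of -0.63 ± 0.036 (SE, adjusted p = 4.5e-19) for ENPP1+ATP, -0.61 ± 0.036 for AMP and -0.41 ± 0.036 for ATP. Hsp90b1 was at 731, 715 and 728 CPM under vehicle, 638, 679.9 and 678 under ATP, 460.0, 466 and 458 under ENPP1+ATP and 545, 529 and 553 under AMP. The groups stood in the same order, with the AMP libraries farther above those of ENPP1+ATP than for Hspa5 (-0.65 ± 0.038 for ENPP1+ATP, -0.42 ± 0.038 for AMP and -0.12 ± 0.037 for ATP). Creld2 (-0.65 and -0.67 under ENPP1+ATP and AMP), Sdf2l1 (-0.59 and -0.43), Hyou1 (-0.34 and -0.40), Dnajb11 (-0.25 and -0.14), Manf (-0.33 and -0.31), Dnajc3 (-0.30 and -0.45) and Dnajb9 (-0.23 and -0.24) completed the group. Dnajb9 lost its call under ENPP1+ATP without ENPP1+ATP replicate 1 or vehicle replicate 3, and under AMP without vehicle replicate 3.

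Of the isomerases, Pdia4 fell most. It was at 231, 222 and 238 CPM under vehicle, 145, 152 and 158 under ATP, 119, 122 and 113 under ENPP1+ATP and 138, 131 and 151 under AMP, without overlap between vehicle and any of these groups (-0.96 ± 0.048, adjusted p = 2.3e-21, -0.71 ± 0.047 and -0.60 ± 0.047 for ENPP1+ATP, AMP and ATP). Pdia6 fell by 0.54, 0.40 and 0.26 in the same order. Pdia3 (-0.48), P4hb (-0.42) and Erp44 (-0.28) were lower under ENPP1+ATP, as were both lectins. Calr, which had risen in CFs, was at 964, 992 and 968 CPM under vehicle, 789, 797 and 819 under ATP, 656, 669.6 and 649 under ENPP1+ATP and 755, 756 and 787 under AMP. Every treated NRVM library of Calr lay below every vehicle library (-0.57 ± 0.037, adjusted p = 2.2e-17 for ENPP1+ATP), and Canx fell by 0.42.

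The translocation genes were among the members with the largest falls, and they fell by similar amounts under all 3 media. Sec61a1 was at 328, 336 and 349 CPM under vehicle, 185, 198 and 196 under ATP, 180.0, 191 and 190.1 under ENPP1+ATP and 170.1, 176 and 192 under AMP. Sec61b was at 51.8, 53.5 and 50.3 CPM under vehicle, 24.4, 27.5 and 28.7 under ATP, 28.4, 24.0 and 27.9 under ENPP1+ATP and 23.2, 26.1 and 25.2 under AMP. The 3 treated groups of each gene overlapped or met each other and none overlapped vehicle, with log2 differences of -0.85 ± 0.043, -0.91 ± 0.044 and -0.80 ± 0.043 for Sec61a1 and -0.96 ± 0.071, -1.06 ± 0.072 and -0.95 ± 0.071 for Sec61b under ENPP1+ATP, AMP and ATP. Ssr1 fell by 0.73, 0.68 and 0.70.

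Xbp1 was at 94.3, 102 and 109 CPM under vehicle, 75.0, 70.1 and 73.8 under ATP, 73.0, 73.3 and 74.2 under ENPP1+ATP and 69.7, 65.8 and 63.1 under AMP in NRVM. Treated and vehicle libraries did not overlap (-0.47 ± 0.052, adjusted p = 2.6e-10, -0.62 ± 0.053 and -0.48 ± 0.052). Atf6 fell by 0.30 under ENPP1+ATP and 0.35 under AMP and was not called under ATP (-0.11 ± 0.049), Eif2ak3 fell by 0.44, 0.50 and 0.47, and Ern1 fell under AMP (-0.43 ± 0.073, adjusted p = 2.6e-06) and under ATP (-0.17 ± 0.071, adjusted p = 0.035). The Ern1 call under ATP was lost without ATP replicate 2 or 3 or vehicle replicate 1. In the degradation group, Sel1l (-0.51), Herpud1 (-0.26), Derl1 (-0.41), Derl2 (-0.26), Syvn1 (-0.34), Os9 (-0.40) and Edem1 (-0.19) fell under ENPP1+ATP, and Edem2 did not pass (-0.07 ± 0.092). Edem1 lost its call without ENPP1+ATP replicate 1 or vehicle replicate 2 or 3. Under ATP alone Dnajb11, Herpud1, Hyou1, Dnajb9, Dnajc3, Edem1, Edem2, Derl2 and Atf6 were not called, and the call of Sdf2l1 was lost without vehicle replicate 2.

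**Figure D3:**
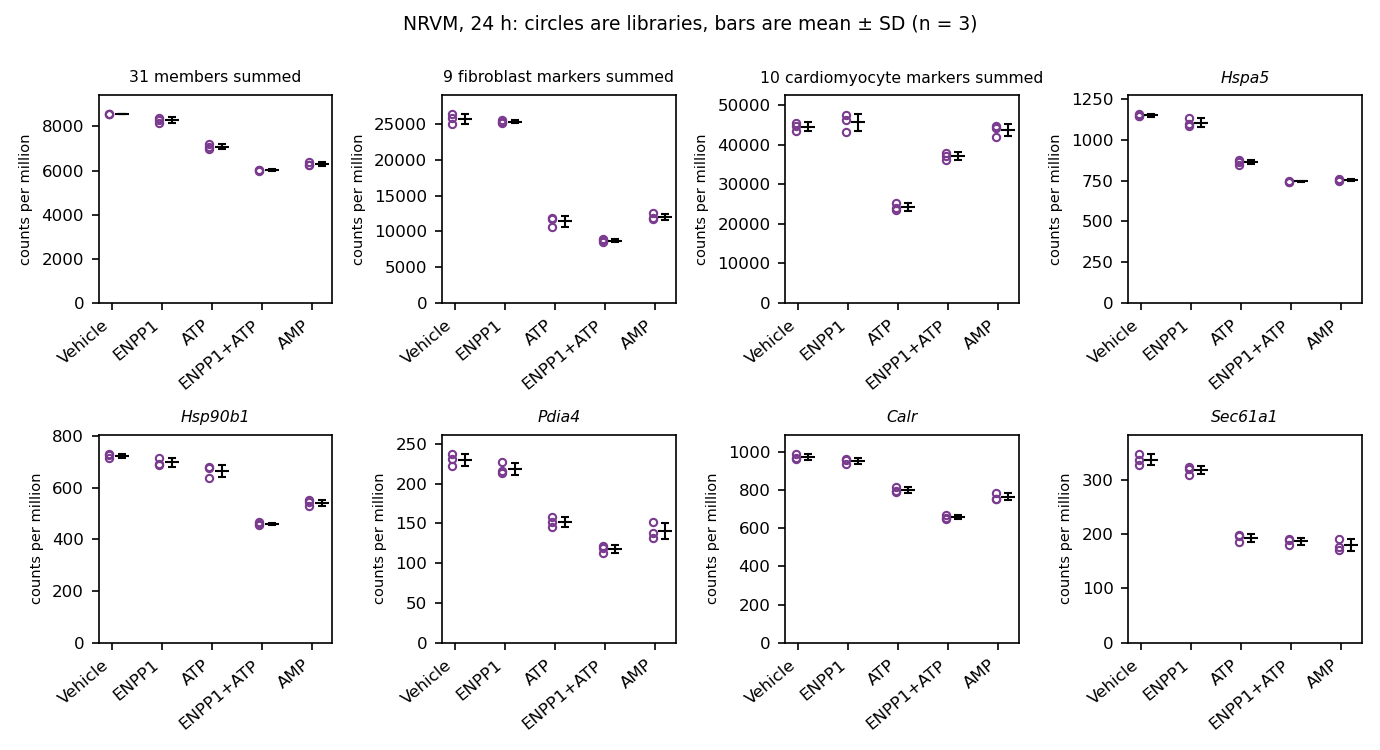
Level in CPM in each NRVM library by medium at 24 h, as single members and as the sum of all listed members and of the fibroblast and cardiomyocyte markers, with circles for libraries and bars for mean ± SD (n = 3). The members and the fibroblast marker sum are lower in the ATP, ENPP1+ATP and AMP libraries than in the vehicle libraries.

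ENPP1+ATP against ATP alone gave 0 higher and 17 lower members in NRVM, where 14.1% of all genes were higher and 13.5% lower. The difference was largest in Hsp90b1 (-0.53 ± 0.038, adjusted p = 4.1e-15), followed by Pdia4 (-0.36 ± 0.048), Creld2 (-0.31 ± 0.078), Dnajb11 (-0.30 ± 0.044) and Sdf2l1 (-0.30 ± 0.10), the last of which lost its call without ATP replicate 1 or 3 or ENPP1+ATP replicate 3. None of the 3 translocation genes was called in this comparison. AMP differed from ENPP1+ATP in 7 members, where 9.66% of all genes were called. Pdia4 (0.25 ± 0.049), Hsp90b1 (0.23 ± 0.038), Calr (0.22 ± 0.037), Os9 (0.19 ± 0.049) and Pdia6 (0.15 ± 0.038) were higher under AMP, and Ern1 (-0.27 ± 0.074) and Herpud1 (-0.19 ± 0.043) lower. The call of Ern1 was lost without ENPP1+ATP replicate 1 and that of Herpud1 without ENPP1+ATP replicate 2.

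The neighbouring lists were read in NRVM in the same way, where 28.6% of all genes were higher and 27.4% lower under ENPP1+ATP. Under ENPP1+ATP, of the translocation and signal peptide cleavage genes 0 of 13 were higher and 10 lower, of the N-glycosylation genes 0 of 10 were higher and 10 lower, of the other folding enzymes 1 of 19 were higher and 12 lower, of the other regulators 2 of 13 were higher and 10 lower, and of the Perk and Atf4 arm 1 of 11 were higher and 10 lower. The other degradation genes (5 of 16 were higher and 3 lower) and the heat shock genes (6 of 12 were higher and 4 lower) were mixed. Serpinh1 fell by 0.72, Trib3 by 1.12 and Selenos by 0.96 on the log2 scale.

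The members that carried the ERSE listed above were set beside those with a promoter window and no ERSE, as a description without a test. The latter include Herpud1 and Dnajb11, which carried the ERSE-II. The shares of all genes called higher and lower were 23.9% and 25.3% in CFs at 24 h, 20.8% and 24.4% at 48 h, 28.6% and 27.4% in NRVM, and 14.1% and 13.5% for ENPP1+ATP against ATP alone in NRVM, and with 8 and 18 members several counts lie near them. In CFs under ENPP1+ATP at 24 h there were 2 higher and 3 lower of 8 (median 0.04) among those with the element and 1 higher and 8 lower of 18 (median -0.06) among those without, and at 48 h 2 higher and 2 lower of 8 (median 0.01) and 3 higher and 9 lower of 18 (median -0.13). Xbp1 and Sec61b, the members with the largest falls in CFs at 24 h, are among those without it, and Derl1 had no window. In NRVM under ENPP1+ATP there were 0 higher and 8 lower of 8 (median -0.55) with the element and 0 higher and 16 lower of 18 (median -0.41) without, and for ENPP1+ATP against ATP alone 0 higher and 7 lower of 8 (median -0.25) and 0 higher and 8 lower of 18 (median -0.10). The NRVM medians with and without the element were -0.41 and -0.43 under AMP, and -0.24 and -0.24 under ATP. In CFs under AMP they were -0.03 and -0.12 at 24 h, and -0.02 and -0.18 at 48 h. The windows are of the mouse genome and were set beside the rat genes of the same symbol. A match in these letters does not show binding.

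In the injured heart the module was read in 1 library per genotype, so no difference between genotypes was tested, and the intervals given cover counting error only. The control library held 5238 cells after filtering, with a median of 3701 counts per cell, and the ENPP1CKO library 7255, with a median of 3367. Enpp1 itself was at 68.8 CPM in the control and 21.1 in the ENPP1CKO library. The libraries shared 68 cell barcodes. Cells were clustered without the member and list genes, and clusters were called by their markers: 1853 control and 3712 ENPP1CKO cells were fibroblast-like, 2569 and 2078 macrophage-like, and 191 and 933 endothelial-like.

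Fibroblast-like cells held the most member RNA of the large classes. The 32 members summed to 7349 CPM in control (95% Poisson interval 7297 to 7402) and 6764 in ENPP1CKO (6724 to 6804). Macrophage-like cells held 4063 and 3889.6 CPM, endothelial-like cells 4422 and 3883, T or NK cell-like cells 4133 and 3577, and dendritic cell-like cells 5704 and 5098. The difference between fibroblast-like cells and these classes was larger than that between genotypes within any of them. Smooth muscle or pericyte-like cells, whose genotypes lay farther apart and are described below, were not part of this comparison. Members differed in where they were high: in the control library Hspa5 was at 902 CPM in dendritic cell-like and 734 in fibroblast-like cells, and Sdf2l1 at 336 and 27.0. The B cell-like cluster held plasma cell RNA mostly in 1 library, with 8 plasma cell markers at 170453 CPM in ENPP1CKO and 12395 in control, and its member sums, 14072 and 4578 CPM, were not compared.

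**Figure D4:**
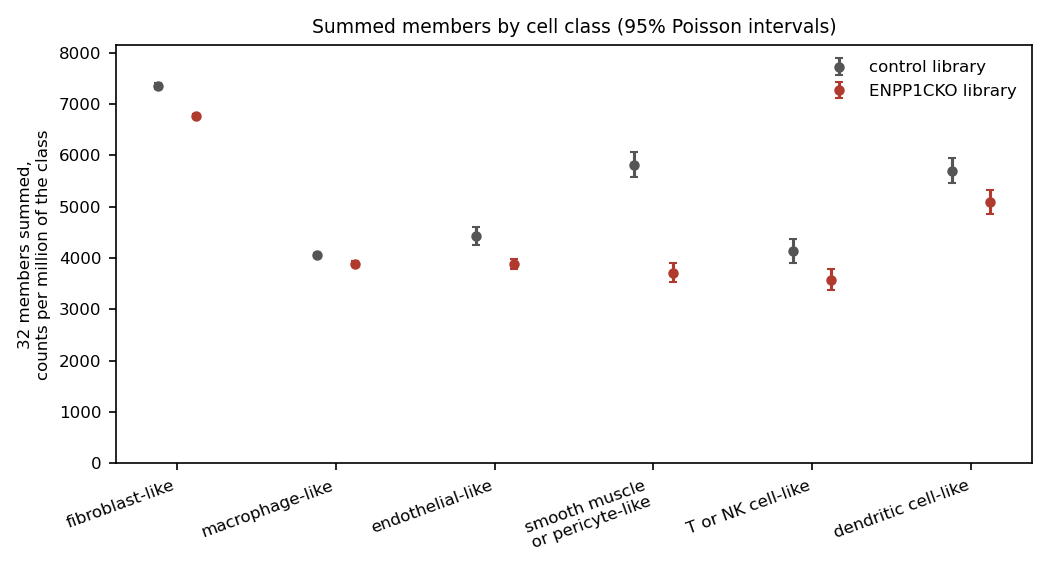
Sum of the 32 members in CPM of each cell class, with 95% Poisson intervals that cover counting error only, for the control and ENPP1CKO libraries. Fibroblast-like cells are above macrophage-like, endothelial-like and T or NK cell-like cells in both libraries.

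In fibroblast-like cells the summed module was lower in ENPP1CKO than in control by a log2 ratio of -0.12 (95% interval -0.13 to -0.11). Of 32 members, 20 were lower and 12 higher, with a median log2 ratio of -0.12, against 0.01 over 12748 genes, of which 48.9% were lower. None of the members was past 1.5-fold, where 14.5% of all genes were. The summed isomerases were below control, at -0.22 (95% interval -0.24 to -0.20), and so were the translocation genes, at -0.25 (95% interval -0.29 to -0.21), while chaperones (-0.04, 95% interval -0.06 to -0.02), degradation genes (0.01, 95% interval -0.04 to 0.06) and sensors (0.05, 95% interval -0.04 to 0.14) lay close to 0.

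Pdia6 had 533 CPM in ENPP1CKO against 669 in control, a log2 ratio of -0.33 (95% interval -0.37 to -0.28). P4hb had 325 CPM in ENPP1CKO against 392 in control, -0.27 (95% interval -0.33 to -0.21), and Sec61b 538 CPM in ENPP1CKO against 652 in control, -0.28 (95% interval -0.32 to -0.23). These folding and channel genes were lower, with Hsp90b1 at -0.22 (95% interval -0.25 to -0.18), Pdia4 at -0.26 (95% interval -0.36 to -0.16), Calr at -0.15 (95% interval -0.19 to -0.11) and Pdia3 at -0.14 (95% interval -0.18 to -0.10). In the other direction, Herpud1 had 103 CPM in ENPP1CKO against 80.9 in control, 0.34 (95% interval 0.22 to 0.46), and Hspa5 802 CPM in ENPP1CKO against 734 in control, 0.13 (95% interval 0.09 to 0.17). Creld2 (0.25, 95% interval 0.11 to 0.40), Sel1l (0.25, 95% interval 0.09 to 0.40) and Atf6 (0.33, 95% interval 0.05 to 0.61) were also higher, and Xbp1 was level at 0.00 (95% interval -0.10 to 0.11). Beside the members, the other folding enzymes summed to -0.34 (95% interval -0.35 to -0.32) in the same cells. The sums of the other neighbouring lists are not given for these cells.

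The genotypes filled different fibroblast-like clusters, so values within clusters were read beside the class. Cluster 5, led by Col11a1 and Acan, held 702 control and 431 ENPP1CKO cells, cluster 1, led by Cilp and Thbs4, 362 and 1799, and cluster 2, led by Clec3b and Dpep1, 625 and 1308. The summed members had log2 ratios of -0.03 in cluster 1, -0.03 in cluster 2 and -0.13 in cluster 5. Pdia6 was lower in each of the 3 (-0.26, -0.32 and -0.32) and Herpud1 higher in each (0.43, 0.15 and 0.18). P4hb (0.01, -0.05 and -0.15) and Sec61b (-0.12, 0.14 and -0.18) were not lower throughout, and Hspa5 was higher in clusters 1 and 2 and not in 5 (0.13, 0.31 and -0.07). A cluster led by Wt1 and Serpinb2, with 116 control and 30 ENPP1CKO cells, was kept out of the fibroblast-like class after the data were seen. Its members summed to 7819.6 and 6791 CPM. Median counts per fibroblast-like cell were 5139 in control and 4054 in ENPP1CKO, and 10 macrophage markers summed to 614 and 346 CPM in these cells. In the same order endothelial markers summed to 112 and 195 CPM, B cell markers to 302 and 442, cardiomyocyte markers to 15.2 and 36.5 and the 10 fibroblast markers to 42153 and 44943, and Col1a1 was at 5906 and 4347. Their part in the ratios was not tested.

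In macrophage-like cells the summed module was -0.06 (95% interval -0.09 to -0.04) in ENPP1CKO relative to control. With each cell thinned to 1000 counts, leaving out 199 control and 66 ENPP1CKO cells below that depth, it was -0.12 (95% interval -0.17 to -0.08). Of 31 measured members 24 were lower and 7 higher (median -0.17, against -0.13 over all genes measured, of which 65.9% were lower), and 1 was past 1.5-fold, where 18.4% of all genes were. That was Eif2ak3, with 13 counts in ENPP1CKO and 38 in control (-1.26, 95% interval -2.29 to -0.32). Clusters 7, led by Ccl24, and 13, led by Chil3 and Plac8, were mostly from the control library, with 828 and 94 control cells and 54 and 23 ENPP1CKO cells. Without them the summed ratio was 0.04 (95% interval 0.01 to 0.06), on the other side of 0, while 20 of 31 members were lower and 11 higher (median -0.05, against -0.05 over all genes measured). Hspa5 was higher in ENPP1CKO with all clusters, 0.39 (95% interval 0.33 to 0.45), and without those, 0.44 (95% interval 0.38 to 0.50), and so was Herpud1, 0.37 (95% interval 0.20 to 0.55) and 0.50 (95% interval 0.31 to 0.69). Edem1 was lower, -0.54 (95% interval -0.72 to -0.37) and -0.38 (95% interval -0.57 to -0.18). Canx, P4hb and Hsp90b1 were lower in the whole class (-0.31, -0.36 and -0.26) and near level without those clusters (-0.08, -0.05 and -0.01). Without clusters 7 and 13, Hspa5 was at 738 CPM in ENPP1CKO and 543 in control, and all members summed to 3850 and 3751. Of the role sums only chaperones and cofactors were then higher (0.20, 95% interval 0.16 to 0.24), and the others lay between -0.08 and -0.01. Of the neighbouring lists, the Perk and Atf4 arm (0.16) and the heat shock genes (0.13) were higher, and the others lay below 0, down to -0.12. In control and ENPP1CKO macrophage-like cells, neutrophil markers summed to 73.4 and 32.5 CPM, endothelial markers to 86.2 and 147, cardiomyocyte markers to 13.8 and 36.3 and fibroblast markers to 996 and 935, and their part in these ratios was not tested.

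In endothelial-like cells the module was -0.19 (95% interval -0.25 to -0.12), with 21 of 28 measured members lower and 7 higher (median -0.19, against -0.04 over all genes measured). Dnajb11 (-0.63, 95% interval -1.10 to -0.14) and Sdf2l1 (-0.69, 95% interval -1.45 to 0.10) were past 1.5-fold, where 26.2% of all genes were. Median counts per cell were 2597 in control and 1473 in ENPP1CKO endothelial-like cells. The 10 endothelial markers summed to 14551 CPM in control and 28507 in ENPP1CKO, and 10 T or NK cell markers to 71.8 and 11.6. Of the clusters in this class, cluster 6, led by Fam167b and Rbp7, held 162 control and 868 ENPP1CKO cells with a summed ratio of -0.25 (95% interval -0.32 to -0.18), and cluster 18, led by Ccl21a and Mmrn1, held 29 and 65 with a ratio of 0.26 (95% interval 0.08 to 0.45), on opposite sides of 0. The part of markers and depth in the class ratio was not tested. Of the 6 classes in the plot of summed members, smooth muscle or pericyte-like cells had the ratio farthest from 0, -0.65 (95% interval -0.74 to -0.55), on 77 control and 155 ENPP1CKO cells. In control and ENPP1CKO cells of that class, fibroblast markers summed to 12190.5 and 6516 CPM, smooth muscle or pericyte markers to 8873 and 11996, endothelial markers to 1329 and 2797 and cardiomyocyte markers to 168 and 570.1. Median counts per cell were 3984 and 2011, and the part of markers and depth in the ratio was not tested.

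**Figure D5:**
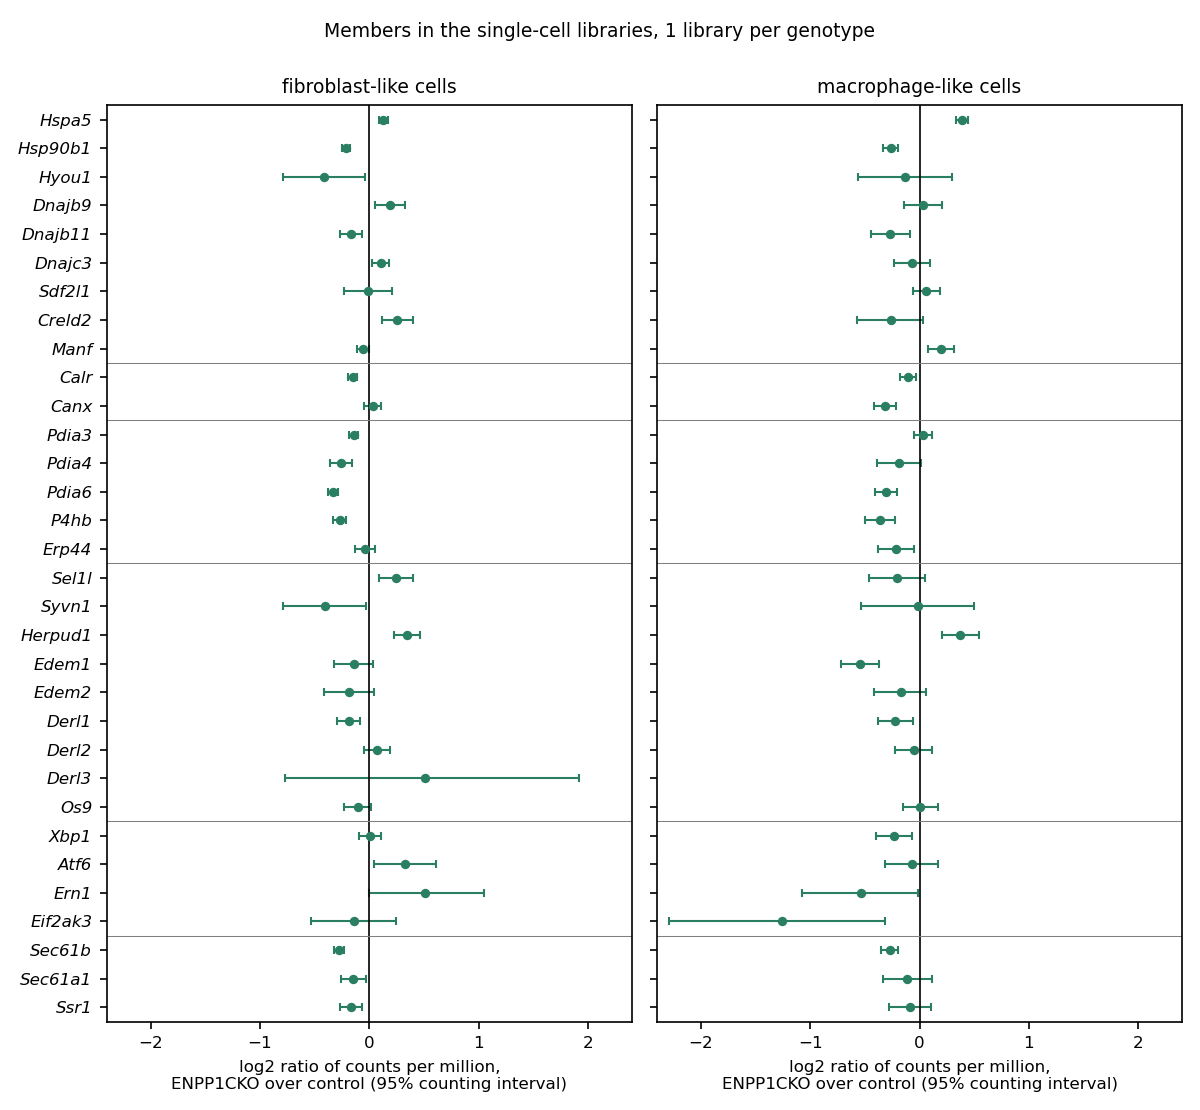
Log2 ratio of CPM, ENPP1CKO over control, for each member measured in fibroblast-like cells (left) and macrophage-like cells (right), with 95% counting intervals from 1 library per genotype. In fibroblast-like cells Pdia6 and P4hb lie left of 0 and Herpud1 and Hspa5 right of it.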

How the data were processed

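The members, their roles and the neighbouring lists were chosen with earlier results of these data known. The deposited tables held raw read counts per gene for 20 CF and 15 NRVM libraries and raw counts per gene and cell barcode for 2 single-cell libraries. According to the submitters' processing notes, STAR 2.5.3a and Cell Ranger and the builds mm10 and rn6 were used by the authors, and the counter and annotation are not given in the sources used here. The NRVM libraries carry a mouse organism label, but their cell type and strain labels are rat and their table was read as rat.

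Counts of each bulk experiment were fitted over all its groups with edgeR 4.0.16 (R 4.3.3, limma 3.58.1), using filterByExpr, TMM factors and the quasi-likelihood test (2-sided), with Benjamini-Hochberg adjustment over all genes tested and calls at an adjusted p under 0.05. CPM used TMM-scaled library sizes, and per-kilobase levels used merged exon lengths of GENCODE mouse release 21. On simulated counts of the CF comparison of ENPP1+ATP with vehicle at 24 h (17276 genes), 32.8%, 56.7% and 65.2% of genes changed by 1.25, 1.5 and 2-fold were recovered, and in NRVM (13264 genes) 47.8%, 77.6% and 87.9%. Only 67, 67 and 66 genes, drawn from all those tested, were changed in each simulation. In the data 49.1% of genes in CFs and 56.0% in NRVM were called, so these shares do not measure the power of the reported tests. Alternatives were RLE factors, no filter on low counts, a replicate block, DESeq2 1.42.0 and leaving out each library.

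Of 7460 ENPP1CKO and 5347 control barcodes, those under 200 genes or above 20% mitochondrial reads were dropped, and doublets called from simulated pairs (151 and 71, or 2.02% and 1.33% of barcodes) were left out. Clustering with scanpy 1.11.5 used 2000 variable genes without 134 member and list genes, 30 principal components, 15 neighbours and Leiden resolution 0.5. Clusters were called by the markers they expressed. Counts were summed per library and class and given as CPM with exact 95% Poisson intervals, and ratios with exact conditional binomial intervals, which cover counting error only. Ensembl IDs matched a symbol for 30934 of 31053 genes, and Srpra, Ero1a and Ero1b were listed under the older symbols Srpr, Ero1l and Ero1lb. Outside the members, up to 2 genes per list with the largest rise and up to 2 with the largest fall under ENPP1+ATP at 24 h in CFs were named.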

Additional observations from a re-analysis of the deposited data

Results flagged for a closer look

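In CFs the response to conditioned medium differed between 24 h and 48 h in a test of the difference itself, edgeR's interaction term, for 13 of 31 members under ENPP1+ATP and 10 of 31 under AMP. The same terms passed for 30% and 31.7% of all genes, so that the share of members under AMP is near the background. Values are the log2 difference from vehicle at 48 h minus that at 24 h. Under ENPP1+ATP the response was higher at 48 h in Canx (0.30), Derl1 (0.34), Hsp90b1 (0.23), Pdia3 (0.45), Sec61b (0.45) and Xbp1 (0.76). It was lower at 48 h in Creld2 (-0.25), Ern1 (-0.49), Herpud1 (-0.43), Hyou1 (-0.31), Pdia6 (-0.30), Sdf2l1 (-0.43) and Sel1l (-0.17). Under AMP it was higher in Canx (0.34), Derl1 (0.60), Hsp90b1 (0.23), Pdia3 (0.40), Sec61b (0.79) and Xbp1 (0.80), and lower in Creld2 (-0.36), Ern1 (-0.49), Herpud1 (-0.50) and Hyou1 (-0.31). Both sets of terms share the vehicle libraries. The part of CF death under these media in the terms was not tested. Under ENPP1+ATP the terms of Hsp90b1, Creld2, Sel1l and Derl1 lost significance when some single libraries were left out, and under AMP that of Hsp90b1 without vehicle 24 h replicate 2.

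For 3 members the response to ENPP1+ATP at 24 h went up in every CF library and down in every NRVM library: the log2 difference from vehicle in CFs was above that in NRVM by 1.00 for Calr, 0.93 for Creld2 and 0.67 for Atf6. In NRVM 29 of 31 members were lower and 0 higher, so any member called higher in CFs and also called in NRVM had to differ in direction. The share of all genes with opposite calls was not counted. The difference between the cell types was not tested, since the tables are of different species and were fitted apart.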

How the results depend on the processing

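The numbers of members called stayed within 1.5 times the main count under RLE factors, no filter, DESeq2, the replicate block and each left-out library, apart from the following. Without 1 library each, the counts ranged from 3 to 7 (10 with all libraries) for 48 h against 24 h under ATP, 1 to 3 (6) under ENPP1, 11 to 15 (17) under ENPP1+ATP and 1 to 2 (4) under vehicle, from 0 to 1 (1) for AMP against ENPP1+ATP in CFs at 24 h, from 0 to 4 (5) for ATP against vehicle at 24 h and from 2 to 4 (6) at 48 h. With all libraries, 14.8% of all genes were called for 48 h against 24 h under ATP and 7.95% under ENPP1. The count for ATP against vehicle at 24 h was 2 with no filter and 3 with RLE factors. The balance of higher and lower members turned for the time difference in the ENPP1+ATP response, from 6 and 7 to 6 and 5 with no filter and without ENPP1+ATP 24 h replicate 1, vehicle 24 h replicate 1 or vehicle 48 h replicate 2. For 48 h against 24 h it turned from 8 and 10 to 7 and 6 under AMP without AMP 48 h replicate 2, and from 6 and 4 to 3 and 4 under ATP without ATP 24 h replicate 1. The cause was not tested. In CFs 2 libraries per group limit what small differences can show, and a left-out library leaves a lone one assumed to vary like the others.

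The replicate numbers did not pair the libraries: same-numbered libraries of different groups had deviations correlated by 0.026 on average in CFs at 24 h (-0.11 to 0.13), 0.0075 at 48 h and 0.00065 in NRVM. With the replicate number as a block (replicate block), more members were called for ENPP1+ATP against vehicle in CFs at 24 h (19 in place of 18) and 48 h (21, 20) and in NRVM (30, 29), for AMP against vehicle in CFs at 48 h (23, 22), and for 48 h against 24 h under vehicle (6, 4) and AMP (19, 18). Fewer were called for 48 h against 24 h under ENPP1+ATP (16 in place of 17) and ATP (9, 10). The other counts were equal, with 1 member lost and 1 gained for 48 h against 24 h under ENPP1, and no count moved by over 1.5 times.

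In macrophage-like cells the summed log2 ratio of -0.06 was -0.12 with each cell thinned to 1000 counts and 0.038 without the clusters that came mostly from the control library. In fibroblast-like and endothelial-like cells it stayed within its counting interval under Leiden resolution 1, a stricter cell filter and thinning.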
